A study of Mus musculus with 2 samples.

Results

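The nuclear genes for subunits of the oxidative phosphorylation complexes were described in 2 libraries of RNA recovered by immunoprecipitation from nuclei. They were chosen by symbol, as genes whose names begin with Nduf followed by a, b, c, s or v and a digit, with Cox and a digit from 4 to 8, with Uqcr or with Atp5, or that are Sdha, Sdhb, Sdhc or Sdhd. This gave 84 of the 23924 gene symbols of the table, namely 37 for complex I, 4 for complex II, 8 for complex III, 18 for complex IV and 17 for complex V. A few of them, Atp5s, Atp5sl, Cox7a2l and Ndufa4l2, carry such a name without being established subunits, and all of these were at 0 in both libraries.

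Both libraries came from RAW 264.7 cells, an established mouse macrophage line, that had been depleted of mRrp6 (the nuclear exosome ribonuclease) and given LPS, a bacterial cell wall component, for 12 h at 80 ng/ml. One was made with IgG and served as the control, and the other with an antibody against nucleolin, an abundant RNA-binding protein of the nucleolus, to find the RNAs it is associated with. The nucleolin library is the one titled as nucleoplasmic RNA, and values are given below as with IgG or with nucleolin. There was 1 library per group and the depletion was shared by both, so differences lack a check by replicates, no test between the groups could be made, and nothing here bears on the depletion or on LPS.

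Oxidative phosphorylation takes place in the inner mitochondrial membrane. Complex I (NADH dehydrogenase) and complex II (succinate dehydrogenase) pass electrons to ubiquinone, complex III (the cytochrome bc1 complex) passes them on to cytochrome c, and complex IV (cytochrome c oxidase) passes them to oxygen. Complex V, the ATP synthase, makes ATP from the proton gradient that complexes I, III and IV build up. The messenger RNAs of most subunits are transcribed in the nucleus and translated in the cytosol, and a smaller set of core subunits is encoded in mitochondrial DNA. Macrophages stimulated with LPS are known for a shift from respiration towards glycolysis.

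Promoters of these genes are known for binding sites of the transcription factors NRF1 and GABPA. The letters CGCATGCG, the centre of the NRF1 site, which reads the same on both strands, were searched in the 250 bases before the RefSeq start (GRCm38.p6). They were found in 7 of the 69 members with an entry (10.1%) and in 1.75% of all 27025 genes with one. The ETS letters CCGGAAGT, of the family of GABPA, were in 3 members (4.35%) and in 3.23% of all genes on either strand, and AAGATGGC, the core of the YY1 site, in 2 members (2.90%) and in 1.83% of all genes. The 170 bases before the start are shown for 4 members that were listed with IgG and at 0 with nucleolin, with the motifs in capitals, to show such sites in their context. They are chr15:102671048-102671217 for Atp5g2 and chr5:115348959-115349128 for Cox6a1 (NRF1), chr16:84834977-84835146 for Atp5j (NRF1, then YY1) and chr10:80406822-80406991 for Uqcr11 (ETS), all on the minus strand. For Atp5j the start is one of several in RefSeq and lies inside the gene's span.
Atp5g2: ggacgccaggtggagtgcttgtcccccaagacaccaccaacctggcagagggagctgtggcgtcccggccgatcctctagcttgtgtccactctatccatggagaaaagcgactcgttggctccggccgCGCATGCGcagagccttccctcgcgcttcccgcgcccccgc
Cox6a1: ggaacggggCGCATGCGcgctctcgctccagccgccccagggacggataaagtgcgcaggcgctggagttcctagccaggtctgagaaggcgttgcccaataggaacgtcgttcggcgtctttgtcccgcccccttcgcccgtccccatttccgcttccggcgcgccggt
Atp5j: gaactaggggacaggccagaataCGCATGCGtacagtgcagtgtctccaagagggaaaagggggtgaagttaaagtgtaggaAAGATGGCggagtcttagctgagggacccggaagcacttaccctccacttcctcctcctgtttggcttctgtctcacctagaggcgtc
Uqcr11: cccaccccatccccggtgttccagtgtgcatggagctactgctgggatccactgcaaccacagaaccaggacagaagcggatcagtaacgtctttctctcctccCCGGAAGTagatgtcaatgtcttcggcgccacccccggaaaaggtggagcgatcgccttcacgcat
The NRF1 letters were in 4 of 15 members listed with IgG and at 0 with nucleolin, in 0 of the 5 members the other way round, in 0 of 3 listed in both libraries and in 3 of 46 at 0 in both. A match is a description of the letters, and RNA recovered with an antibody does not measure a promoter.

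Levels are given as FPKM, which divides a gene's fragments by transcript length and library size, and a gene at 0.1 FPKM or more is called listed. Of the 84 genes, 21 were listed with IgG and 13 with nucleolin, 4 of them in both, and 54 were at 0 in both. In share of genes this was 25% and 15.5%, against 8.40% and 7.23% of all gene symbols. Over all 84 the summed level was 2846 FPKM with IgG and 452 FPKM with nucleolin, a 6.30-fold difference. That factor falls when the libraries are put on a common scale, because 1 read was worth more FPKM with IgG. The library constants (below) differed 2.57-fold, and with the length offsets 1 read was worth 2.30 times more with IgG on 500 bases and 2.54 times more on 2700 bases. The log2 ratio of the sums was -2.65 as deposited, -1.29 with the nucleolin values multiplied by 2.57 (called rescaled here) and -1.45 with the factor of 500 bases.

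On the scale log2(FPKM + 1), 9 of the 30 genes listed in either library were at least 2-fold higher with nucleolin and 21 at least 2-fold lower. Among all 3194 genes that reached 1 FPKM in a library, 37.8% were higher and 56.7% lower by the same rule, against 30.0% and 70.0% of these 30. On the rescaled values the members divided into 9 higher and 17 lower, the 4 members in both libraries then being within 2-fold, while the background was 40.6% higher and 46.9% lower. The median log2 ratio of the 30 was -5.38, against -1.27 over all genes compared, and over the 4 members in both libraries it was -1.50, against -1.19 over all 538 such genes. Of the 30, 56.7% were listed with IgG alone, against 46.0% of all genes compared. The median of the 30 thus fell among genes at 0 with nucleolin, and its size depends on the 1 added to FPKM. It was -8.67 with 0.1 added and -3.19 with 5 added. As a whole the members stood somewhat more often on the IgG side than all genes did, a difference that 1 library per group does not allow to be tested. RNA came from many cells at once, so fewer cells with a transcript and less of it per cell cannot be told apart.

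**Figure D1:**
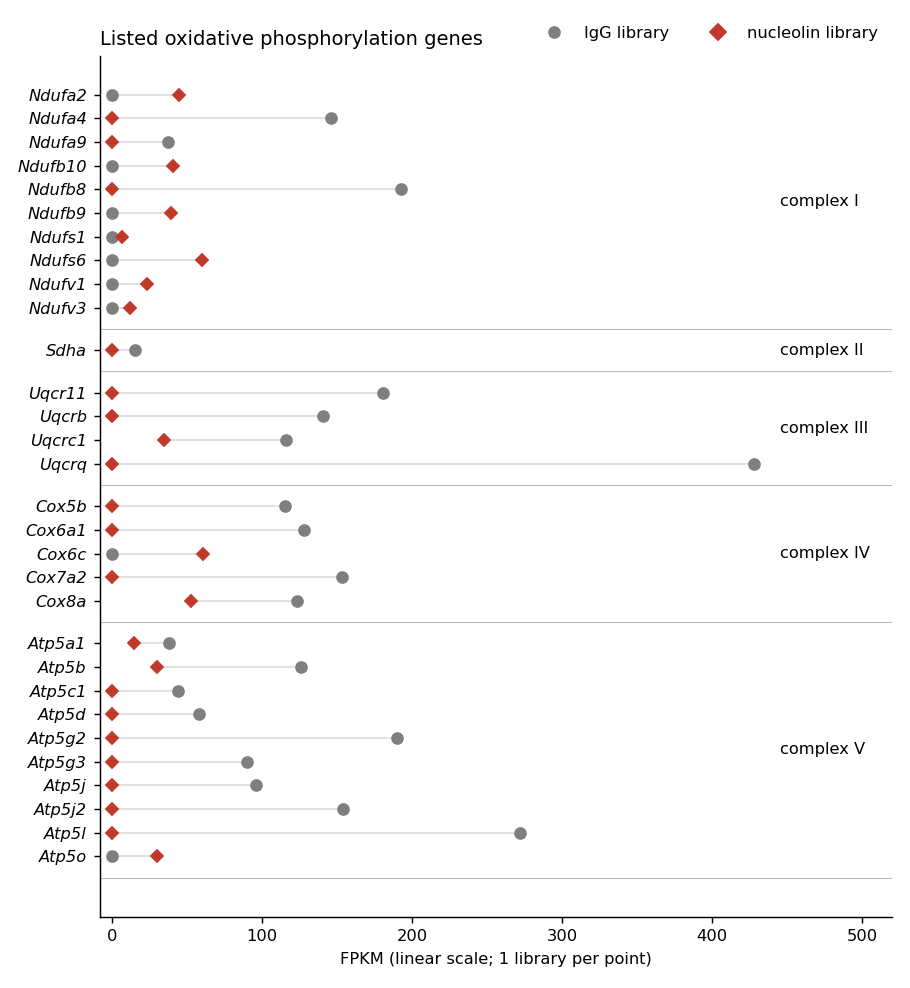
FPKM of the 30 listed genes (vertical axis, by complex) on a linear scale, with grey circles for the IgG library and red diamonds for the nucleolin library, 1 library each. In complex I 7 of 10 genes have the red symbol to the right, and in complexes II to V 18 of 20 have the grey one to the right.

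Complex I stood toward the nucleolin library by number of genes. Of its 37 genes 10 were listed, 7 with nucleolin and at 0 with IgG, and 3 the other way round. In complexes II to V together 20 of 47 genes were listed, 2 of them higher and 18 lower with nucleolin, or 2 and 14 on the rescaled values, where complex I kept its 7 and 3. Over all genes compared 37.8% were higher and 56.7% lower as deposited, and 40.6% and 46.9% rescaled. Ndufa4, named as a complex I gene and known as a subunit of complex IV, is among the 3 on the IgG side, and without it complex I had 7 higher and 2 lower. None of the 10 listed genes of complex I was in both libraries. This was so for 13.3% of the listed members of all complexes and for 16.8% of all genes compared. Whether complex I differs from these shares was not tested.

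The flavoprotein and iron-sulphur proteins of complex I, which take up electrons from NADH and carry them towards ubiquinone, were all on the nucleolin side where listed. Ndufv1, the subunit that binds NADH and flavin (chr19:4007499-4012755 on mm10), was at 23.9 FPKM with nucleolin and 0 with IgG. Ndufs6, an accessory subunit of the same arm (chr13:73319876-73328482), was at 60.3 and 0 FPKM. Ndufs1, the largest core subunit with several iron-sulphur clusters, was at 6.75 and 0 FPKM, and Ndufv3, an accessory subunit, was at 12.2 and 0 FPKM. None of these 4 was listed with IgG, and Ndufv2, Ndufs3, Ndufs4, Ndufs5, Ndufs7 and Ndufs8 were at 0 in both libraries.

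The accessory subunits of complex I were divided. Ndufa2 was at 44.6 FPKM, Ndufb10 at 41.0 FPKM and Ndufb9 at 39.4 FPKM with nucleolin, each at 0 with IgG. Ndufb8 was at 193 FPKM, Ndufa4 at 146 FPKM and Ndufa9 at 37.7 FPKM with IgG, each at 0 with nucleolin. The values on the IgG side were larger, so the sum over complex I was 376 FPKM with IgG and 228 FPKM with nucleolin, a log2 ratio of -0.72 that turned to 0.64 on the rescaled values and to 0.48 with the factor of 500 bases, and was -0.015 with Ndufa4 left to complex IV. Complex I thus stood toward nucleolin by its count of genes, and its summed level had no direction common to these scales.

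Complex II, which is also an enzyme of the citric acid cycle, was represented by Sdha, its flavoprotein, at 15.9 FPKM with IgG and 0 with nucleolin. Sdhb, Sdhc and Sdhd were at 0 in both.

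Complex III had the highest single value of all members. Uqcrq, a small subunit of the cytochrome bc1 complex (chr11:53427922-53430831), was at 428 FPKM with IgG and 0 with nucleolin. Uqcr11 and Uqcrb, both also small subunits, were at 181 and 141 FPKM with IgG and 0 with nucleolin. Uqcrc1, a large core subunit facing the matrix (chr9:108936648-108949641), was listed in both, at 116 FPKM with IgG and 34.6 FPKM with nucleolin, a log2 ratio of -1.72. All 4 listed genes were lower with nucleolin as deposited, and 3 on the rescaled values, against 56.7% and 46.9% of all genes compared. Uqcrc2, Uqcrfs1 (the Rieske iron-sulphur protein), Uqcrh and Uqcr10 were at 0 in both. The sum was 866 against 34.6 FPKM.

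In complex IV 4 of 5 listed genes were lower with nucleolin as deposited, and 3 on the rescaled values, against 56.7% and 46.9% of all genes compared. Cox7a2 was at 153 FPKM, Cox6a1 at 128 FPKM and Cox5b at 115 FPKM with IgG, all at 0 with nucleolin. Cox8a, a small membrane subunit (chr19:7215158-7217616), was at 123 and 52.8 FPKM, a log2 ratio of -1.21. Cox6c was the exception (chr15:35931976-35938246), at 60.9 FPKM with nucleolin, the highest member there, and 0 with IgG. The other 13 genes were at 0 in both, among them Cox4i1, Cox5a and Cox7c, which are expressed in nearly all tissues. The 7 isoforms restricted to tissues such as heart, skeletal muscle, lung and testis (Cox4i2, Cox6a2, Cox6b2, Cox7a1, Cox7b2, Cox8b and Cox8c) were also at 0 in both libraries.

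Complex V had 10 of 17 genes listed. As deposited 9 were lower and 1 higher with nucleolin, against 56.7% and 37.8% of all genes compared. On the rescaled values 7 were lower and 1 higher, against 46.9% and 40.6%. Of its catalytic head, Atp5b, the beta subunit that carries the active site (chr10:128083307-128090388), was at 126 FPKM with IgG and 30.0 FPKM with nucleolin, a log2 ratio of -2.04. Atp5a1, the alpha subunit, was at 37.9 and 14.9 FPKM, a log2 ratio of -1.29. These were the members of complex V in both libraries, and both were lower with nucleolin as deposited. Atp5c1 (gamma, the rotating shaft) was at 43.9 FPKM and Atp5d (delta) at 58.0 FPKM with IgG, each at 0 with nucleolin.

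Atp5l was at 272 FPKM with IgG, the second highest member there, and Atp5g2, which encodes the c subunit of the proton-carrying ring, at 190 FPKM. Both were at 0 with nucleolin. Atp5g3, which encodes the same ring protein from another gene, was at 90.2 FPKM and Atp5j2 at 154 FPKM with IgG, each at 0 with nucleolin. Of the stalk that holds the catalytic head, Atp5j (coupling factor) was at 95.9 FPKM with IgG and 0 with nucleolin, and Atp5o at 30.5 FPKM with nucleolin and 0 with IgG. Genes with near-identical copies, such as the c subunit genes and members with processed pseudogenes, are uncertain, since the treatment of shared reads is not given in the sources used here. Atp5o was the gene of complex V on the nucleolin side. Over complex V the sum was 1068 against 75.4 FPKM.

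**Figure D2:**
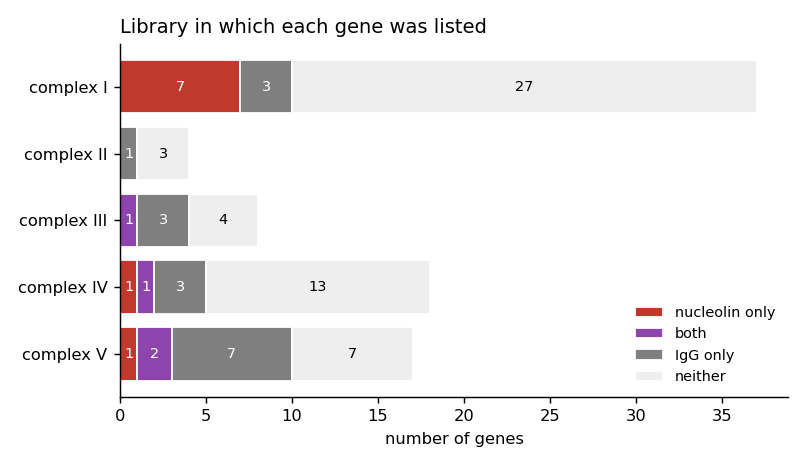
Number of genes of each complex (horizontal axis) listed at 0.1 FPKM or more with nucleolin and not IgG (red), in both (purple), with IgG and not nucleolin (dark grey), or in neither (light grey). Complex I has 7 genes in red and 3 in dark grey, while complex V has 1 and 7.

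These FPKM values stood for very few reads, and the number could be recovered. With n reads on a transcript of a given length, FPKM is n times a constant of the library divided by the length less an offset for the fragment size. The genes Ier2, Hist1h1b and Hist1h1d have no introns, so that their span on the genome is their transcript length, and taken at 1 read each they fixed the constant and the offset of the IgG library. Junb and Cebpb, also without introns, did so for the nucleolin library at 1 and 2 reads. Junb, which was not used for the IgG library, came out at 5 reads there. For every gene with 1 transcript row the smallest number of reads, up to 20, that gave a whole transcript length was then taken, with a tolerance of 0.005 bases that covers 1% of the possible lengths for each number tried. A whole length was found for 95.6% of 1405 such genes with IgG and 96.7% of 1167 with nucleolin. Of 346 genes solved in both libraries separately, 342 (98.8%) had the same length to the base, with a correction for short transcripts that was itself set from 14 lengths, that of Cox8a among them.

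The constants correspond to 23669 fragments in the per-million term of the IgG library and 60896 in that of the nucleolin library. At 1 read stood 76.0% of the solved genes of the IgG library and 72.4% of those of the nucleolin library. The solved genes held 2093 reads with IgG and 1884 reads with nucleolin, so outside the most abundant RNAs the libraries held similar numbers of reads. For a transcript of 500 bases 1 read is worth 142 FPKM with IgG and 61.8 FPKM with nucleolin, and for one of 2700 bases 16.9 and 6.66 FPKM.

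The members held 37 reads with IgG and 19 with nucleolin. In the IgG library 12 of the 21 listed members had 1 read, 5 had 2 reads, 2 had 3 (Uqcrq and Atp5j), Uqcrc1 had 4 and Atp5b had 5. In the nucleolin library 9 of 13 had 1 read, Ndufv1 and Atp5a1 had 2, and Uqcrc1 and Atp5b had 3. Of the listed values, 4 belong to genes with several transcript rows that gave no whole length (Atp5c1 and Atp5g3 with IgG, Ndufs1 and Ndufs6 with nucleolin) and were counted as 1 read. Atp5j has 5 transcript rows, and its 3 reads, on 1524 bases, were solved from the highest row. At 1 read that row would give 643.055 bases, close to a whole length but outside the tolerance, so its read number is uncertain. The total of 37 and that of complex V below include these 3 reads. Among members at 1 read, FPKM follows transcript length alone. Uqcr11 at 181 FPKM and Sdha at 15.9 FPKM both had 1 read with IgG, on recovered lengths of 436 and 2859 bases.

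**Figure D3:**
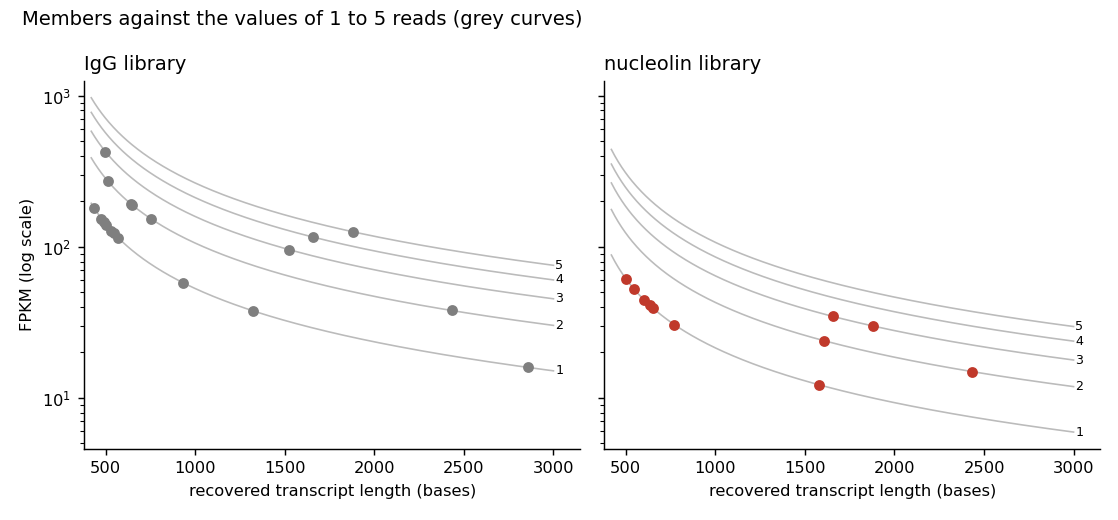
FPKM (vertical axis, log scale) against recovered transcript length in bases for the members with a recovered length, for the IgG library (left) and the nucleolin library (right). Grey curves give the FPKM of 1 to 5 reads, on which the points lie because the lengths were solved from them, and most points are on the lowest curve.

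Most of the solved members had short transcripts, with Sdha (2859 bases) and Atp5a1 (2431 bases) as the longest. The median recovered length of the solved members was 605 bases with IgG and 711.5 bases with nucleolin, against 2767 and 2652 bases over all solved genes. A given number of reads thus gave a member of median length a higher FPKM than a gene of typical length. The 4 genes in both libraries have the read numbers that limit their ratios. Atp5b had 5 reads with IgG and 3 with nucleolin on 1879 bases, and its FPKM ratio of 0.238 had an exact (Clopper-Pearson) 95% interval from 0.0369 to 1.22. Uqcrc1 had 4 and 3 reads on 1656 bases, with a ratio of 0.298 (0.0436 to 1.76). Atp5a1 had 2 reads in each on 2431 bases, with a ratio of 0.394 (0.0286 to 5.44), and Cox8a 1 in each on 545 bases, with a ratio of 0.428 (0.00545 to 33.6). All 4 intervals include a ratio of 1 and also 0.394, the most frequent ratio over all genes in both libraries. PCR duplicates may be among the reads, so these intervals cover counting error only.

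The same depth limits what a listed 0 can show. A count of 0 allows up to 3 reads (a one-sided 95% limit, below the upper bound of 3.69 of the two-sided Poisson interval), and for Uqcrq, at 3 reads and 428 FPKM with IgG, 3 reads with nucleolin would be 186 FPKM. For Ndufa9, at 1 read and 37.7 FPKM with IgG, the corresponding limit with nucleolin is 45.3 FPKM, above the IgG value. For Ndufv1, at 2 reads and 23.9 FPKM with nucleolin, the limit with IgG is 90.2 FPKM, and for Cox6c, at 1 read and 60.9 FPKM, it is 422 FPKM. A difference between the libraries was not detectable at this depth for a single gene at 1 read.

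Summed by complex, the reads showed the same division with wide errors. Complex I had 4 reads with IgG (exact 95% Poisson interval 1.09 to 10.2) and 8 with nucleolin (3.45 to 15.8). Complex V had 18 (10.7 to 28.4) and 6 (2.20 to 13.1), complex III 9 (4.12 to 17.1) and 3 (0.619 to 8.77), and complex IV 5 (1.62 to 11.7) and 2 (0.242 to 7.22). The intervals of the libraries overlapped in every complex with reads in both, but overlap of separate intervals is not a test of a difference. Of the reads of complex V 25% (exact 95% interval 9.77% to 46.7%) were with nucleolin, and of those of complex I 66.7% (34.9% to 90.1%). Whether complex I and complex V differ in this share was not tested. For comparison, all solved genes with 1 row held 2093 reads with IgG and 1884 with nucleolin. Among genes with 1 row, the members held 1.53% of the solved reads of the IgG library (exact 95% interval 1.05% to 2.15%) and 0.849% of those of the nucleolin library (0.486% to 1.38%), and these intervals overlapped as well.

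**Figure D4:**
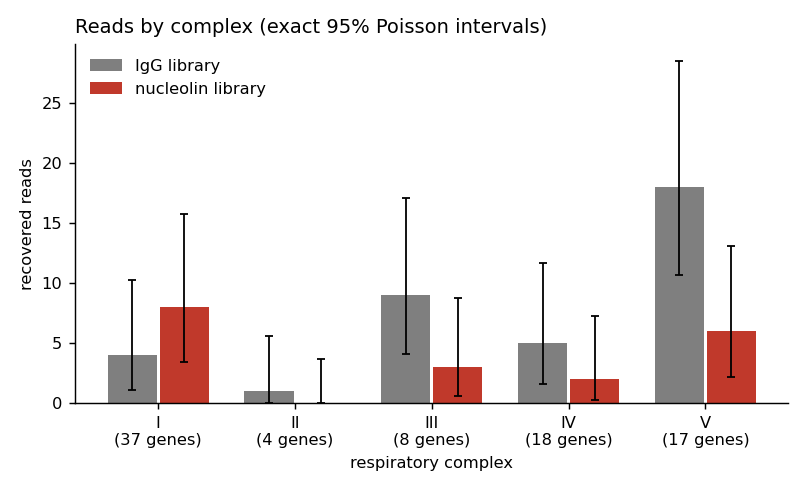
Recovered reads (vertical axis, from 0) of each respiratory complex for the IgG library (grey) and the nucleolin library (red), with exact 95% Poisson intervals that cover counting error alone. Complex I has 4 and 8 reads, complex V 18 and 6, and the intervals of the libraries overlap in each, which is not a test of a difference.

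Other genes of the pathway were examined through lists. Of 17 enzymes of the citric acid cycle and pyruvate dehydrogenase, which supply the electrons, 13 were listed. As deposited 11 were at least 2-fold lower and 1 higher with nucleolin, against 56.7% and 37.8% of all genes compared. On the rescaled values 10 were lower and 2 higher, against 46.9% and 40.6%. The median log2 ratio of the 13 enzymes was -4.13 as deposited, and the sum was 380 FPKM with IgG and 60.9 FPKM with nucleolin. Most of the 13 were at 0 with nucleolin, so that median depends on the 1 added to FPKM. Idh3b, a subunit of isocitrate dehydrogenase, was at 64.1 FPKM with IgG and 0 with nucleolin. Suclg1, a subunit of succinyl-CoA ligase, was at 35.5 and 14.2 FPKM, 1 read in each. Mdh2, malate dehydrogenase, was at 39.1 and 31.3 FPKM, 1 read and 2, and was the listed enzyme within 2-fold as deposited.

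Assembly factors build the complexes without being part of them. Of 42 such genes, 5 were listed, 4 of them with nucleolin alone and 1 with IgG alone. For comparison, 3194 of all 23924 gene symbols reached 1 FPKM in a library. Of all genes compared 37.1% were listed with nucleolin alone and 46.0% with IgG alone. The median log2 ratio of the 5 was 2.63, against -1.27 over all genes compared. Since each of the 5 was at 0 in a library, that median depends on the 1 added to FPKM. Surf1, needed for complex IV, was at 17.4 FPKM and Ecsit, an assembly factor of complex I that also takes part in Toll-like receptor signalling, at 13.1 FPKM with nucleolin, each at 0 with IgG. Coa5 was at 11.5 FPKM with IgG and 0 with nucleolin. Among subunits and carriers that the symbol rule does not take, Ndufab1, the acyl carrier subunit of complex I, was at 29.0 FPKM with nucleolin and 0 with IgG, and Cycs, cytochrome c, at 29.6 FPKM with IgG and 0 with nucleolin. Subunits encoded in mitochondrial DNA were not analysed here.

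Markers of other cell types differed between the libraries beside these results. Of 11 genes typical of gastric glands 10 were listed with IgG, with a sum of 13775 FPKM, and all 11 were at 0 with nucleolin. Of all genes compared 46.0% were listed with IgG alone, the share to set beside the epithelial, muscle, adipocyte and liver markers below as well. Pgc (pepsinogen C, 5078 FPKM) and Tff1 (a trefoil peptide, 2915 FPKM) were the highest. The 10 listed also include Atp4a and Atp4b, the proton pump of acid-secreting parietal cells, at 282 and 225 FPKM, parietal cells being known for their many mitochondria. Among 8 epithelial markers, 5 were listed with IgG (448 FPKM in sum), and all 8 were at 0 with nucleolin. Of 9 markers of striated muscle Acta1 was listed, at 33.0 FPKM with IgG, and the other 8 were at 0 in both. Of 6 markers of brown adipocytes and liver, Apoa1 (215 FPKM) and Cidea (43.9 FPKM) were listed with IgG and at 0 with nucleolin. Macrophage markers in the table numbered 11, of which 5 were listed with IgG and 9 with nucleolin, with sums of 705 and 655 FPKM, and they went both ways. Lyz2 (199.6 FPKM with nucleolin), Csf1r, Itgam and Fcgr1 were at 0 with IgG and counted as higher with nucleolin. Cd68 was at 138 FPKM with IgG and 16.2 FPKM with nucleolin and Tyrobp at 116 and 49.4 FPKM, the 2 counted as lower, Tyrobp with 1 read in each. Cd14, the highest in both libraries, was at 319 and 207 FPKM, within 2-fold as deposited. Of the macrophage markers 4 were higher and 2 lower as deposited, against 37.8% and 56.7% of all genes compared. On the rescaled values 5 were higher and 1 lower, against 40.6% and 46.9%. The part of RNA from other cells in the values of the oxidative phosphorylation genes was not tested.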

How the data were processed

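The deposited table holds FPKM, per the file headers, in 33529 rows of transcripts and a column for each library. Trimmomatic 0.32, FastQC 0.10.0 and mm10 are named by the submitters' processing notes. How reads were aligned, quantified and assigned when shared is not given in the sources used here. A symbol was missing in 56 rows, which were left out. Rows were summed per symbol (the 84 members have 111 rows). All members were found by gene ID in RefSeq's GRCm38.p6 gene table, the assembly of mm10, which gave positions.

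A gene was compared at 1 FPKM or more in a library, on log2(FPKM + 1), and called at 2-fold, a scale that understates the change of low genes. With 1 library per group no test was made, and p-values are not given. Read numbers were solved from whole transcript lengths, a method chosen after seeing the data. In nucleolin transcripts of up to 670 bases the solved length exceeded the whole length by up to 1.26 bases, and this excess was interpolated from 14 lengths known from the IgG library, with a tolerance of 0.02 bases. The solving of read numbers from known constants and the 2-fold call were tested on simulated data. The fitting of the constants and the correction for short transcripts were not tested in this way. The simulated transcripts did not include lengths as short as those of many members. The promoter motifs were also chosen after seeing the data. Named genes are the listed members, by complex, and the 2 highest of each other list in each library. Some genes that this rule takes are not reported here, and cell type markers named beyond it were chosen after their values were seen. Members and lists were chosen with earlier results of these data known. Python 3.11.15, pandas 2.3.3, numpy 2.4.6, scipy 1.17.1 and matplotlib 3.10.9 were used. Other pseudocounts, filters, scalings and row rules were tried.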

Additional observations from a re-analysis of the deposited data

How the results depend on the processing

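The count of members higher with nucleolin was 8 or 9 and that of members lower was 17 or 21 under all alternatives run. Counting the highest row moved no result by 1.5 times or more. Counting copied rows once could change nothing, since no member row is a copy. Dropping names that are not subunits could change nothing either, since they were at 0 in both libraries. The members' median log2 ratio was -5.38, against -1.27 over all genes compared. It was -8.67 with a pseudocount of 0.1, -3.19 with 5, -4.12 when centred on all genes and -8.71 with each library scaled to the same sum without Rn45s, Lars2, Mir6236 and Mir142b, always below 0, since most members were at 0 in a library and the median then depends on the pseudocount. The log2 ratio of summed FPKM was -2.65 in all members, -0.72 in complex I, -4.64 in complex III, -2.19 in complex IV and -3.82 in complex V. With nucleolin values multiplied by 2.57 these were -1.29, 0.64, -3.28, -0.83 and -2.46, with the factor of 500 bases, added after seeing the data, -1.45, 0.48, -3.44, -0.99 and -2.62, and with equal sums without those 4 RNAs -1.21, 0.72, -3.20, -0.75 and -2.38, so complex I turned its direction. With Ndufa4 counted in complex IV, an alternative added after seeing the data, complex I was at -0.015. With a constant ratio of 1 read to 1 read, 3 of the 4 members in both libraries matched a small pair of whole reads at either tolerance, and with transcript lengths all 4 did. Using members with 1 row alone left 32 reads with IgG and 16 with nucleolin, from 37 and 19. No paired analysis was possible because each group has 1 library. Depth limits all single-gene statements to a few reads.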

Other observations

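Genes for mitochondrial import and for carriers of the inner and outer membranes were listed on both sides. Of 25 genes 10 were listed. Of these, 5 were higher and 5 lower with nucleolin by 2-fold or more, against 37.8% and 56.7% of all genes compared. Their median log2 ratio was 0.62, against -1.27 over all genes compared. With nucleolin values multiplied by 2.57, 5 were higher and 2 lower, against 40.6% higher and 46.9% lower of all genes compared. Slc25a5, an ADP/ATP carrier that exchanges the product of complex V with the cytosol, was the highest in both libraries, at 245 FPKM with IgG and 49.1 FPKM with nucleolin, that is 6 reads and 3. Slc25a3, the phosphate carrier, was at 64.5 and 12.9 FPKM, 2 reads and 1. Timm10b, a small import chaperone, was at 43.1 FPKM with nucleolin, 2 reads, and 0 with IgG. Among 11 regulators of mitochondrial biogenesis, 3 were listed, with a median log2 ratio of -3.30, against -1.27 over all genes compared. Each of the 3 was at 0 in a library, so that median depends on the pseudocount. Nrf1 (21.9 FPKM) and Gabpa (8.83 FPKM), the factors whose sites were searched in the promoters, were with IgG, and Tfam, the packaging factor of mitochondrial DNA, with nucleolin (4.46 FPKM), each at 0 in the other library. Gabpa and Tfam had 1 read each.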
